A study of Mus musculus with 6 samples.

Results

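The genes described here encode the enzymes that take up glucose, break it down to lactate and store it as glycogen. They include forms that skeletal muscle uses and forms that other cells and tissues use. The set holds 39 genes, chosen by symbol from the 54525 gene rows of each count table, and all 39 symbols were found. RNA-seq was performed on C2C12 cells, an established mouse muscle line kept as dividing myoblasts in serum-rich medium and turned into multinucleated myotubes in horse serum. All 6 cultures were wild type (WT) and received no treatment according to the labels. The 3 libraries called D0 came from myoblasts at day 0, and the 3 called D5 came from myotubes at day 5 of differentiation. C2C12 is 1 immortalised line, so the cultures are replicates of that line and not of animals. The question put to the data was which forms of each enzyme had RNA in myoblasts and in myotubes. All values are RNA levels, and protein and enzyme activity were not measured here.

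Glycolysis turns 1 glucose molecule into pyruvate in a chain of reactions, and many of the steps are served by more than 1 gene. The proteins made by such a family of genes are called isozymes. They run the same reaction but differ in where they are made and how they are controlled. Skeletal muscle is known for its own set: the insulin-responsive transporter GLUT4 (Slc2a4), hexokinase 2 (Hk2), the muscle subunit of phosphofructokinase (Pfkm), phosphoglycerate mutase 2 (Pgam2), beta-enolase (Eno3), muscle glycogen phosphorylase (Pygm), the muscle forms of phosphorylase kinase subunits (Phka1, Phkg1), the muscle glycogen-targeting subunit of protein phosphatase 1 (Ppp1r3a) and the muscle fructose bisphosphatase (Fbp2). These 10 genes are called the muscle isozymes below. Another 12 genes, other forms in the families from glucose transport to lactate and in phosphorylase, are called the ubiquitous isozymes. The name is only a label, since the class also holds forms of brain, neurons, liver and heart. It holds no partner for Phka1, Phkg1, Ppp1r3a or Fbp2, and its Aldoc and Ldhb are partners of Aldoa and Ldha. Aldoa, Ldha and Gys1 are named for muscle but are used widely and were kept apart, and the remaining 14 genes belong to neither side.

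The D0 libraries held from 36555048 to 40895840 counts on genes and the D5 libraries from 25449759 to 25811300. Levels of a gene are given as CPM (counts per 1000000 after TMM scaling, a correction for library composition), and levels of different genes are set side by side only as TPM, which also divides by exonic length. The libraries fitted their labels. The 7 myotube markers, among them the myosin Myh3 and the creatine kinase Ckm, were all called higher at D5, with a summed level of 56.8 to 70.7 CPM at D0 and 12005 to 12840 at D5. The 3 myoblast markers and the 7 proliferation markers were all called lower at D5, and the summed proliferation level was 2013 to 2038 CPM at D0 and 107 to 117 at D5. These cell states differ in division as well as in differentiation, and the part of either in the values below was not tested. Of 7 adipocyte markers 5 were too low to test, with Cidec and Lep at 0 counts in every library, Pparg was called lower and the transcription factor Cebpa was called higher, from 0.389 ± 0.0957 to 24.0 ± 0.221 CPM (SD, n = 3 per group). The summed adipocyte level was 18.6 to 20.8 CPM at D0 and 31.1 to 32.5 at D5. Of 5 osteoblast markers 4 were too low to test, with Ibsp at 0 in every library, and Runx2 was called lower, with a summed level of 109 to 114 CPM at D0 and 41.4 to 43.1 at D5. In bulk RNA, fewer cells of a kind and less RNA per cell cannot be told apart.

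The muscle isozymes were higher in myotubes at every step where they could be tested. In edgeR's quasi-likelihood test, with Benjamini-Hochberg adjustment over 16290 genes and a threshold of 0.05, 36 of the 39 genes passed the filter on low counts. Of these, 19 were called higher at D5, against 42.2% of all genes tested, and 14 were called lower, against 40.8%. Most genes moved between these 2 states, so a call alone says little about the set, and calls of at least 2-fold were counted too. By that count 14 genes were higher, against 19.3% of all genes, and 6 were lower, against 16.0%. The 3 genes that passed in neither direction were Tpi1, Ldha and Pfkfb4. In CPM, 19 genes had all D5 libraries above all D0 libraries, against 42.2% of all genes tested, and 14 had them below, against 41.1%. These counts include Slc2a4, Ppp1r3a and Ppp1r3c, which passed the filter only through their D5 counts. With at least 10 counts required in every library, 33 genes were tested, 16 were called higher and 14 lower. Over all 13713 genes tested there, 5742 were called higher and 5752 lower.

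The muscle and ubiquitous classes stood on opposite sides. All 9 muscle isozymes that could be tested were called higher, against 42.2% of all genes tested, and 7 by at least 2-fold, against 19.3%. Their median log2 fold change was 3.83, that of Pfkm, which the lower bound used for Ppp1r3a does not move. Slc2a4 and Ppp1r3a passed the filter only through their D5 counts. With at least 10 counts required in every library, 7 muscle isozymes were tested and all 7 were called higher, against 5742 of all 13713 genes tested there. Of the 7, 5 were higher by at least 2-fold, a count whose share over all genes was not taken at this filter. Their median was 2.07. Of the 10 ubiquitous isozymes that could be tested, 7 were called lower and 3 higher, against 40.8% and 42.2% of all genes tested. By at least 2-fold, 4 were lower and 2 higher, against 16.0% and 19.3%. The median of the 10 was -0.83. Over all 16290 genes the median was 0.0022. The 3 ubiquitous genes that rose were Aldoc, Eno2 and Ldhb, named below as forms of brain, neurons and heart. The 3 genes left out by the filter, Slc2a3, Fbp2 and Pygl, had at most 6 counts in any library.

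**Figure D1:**
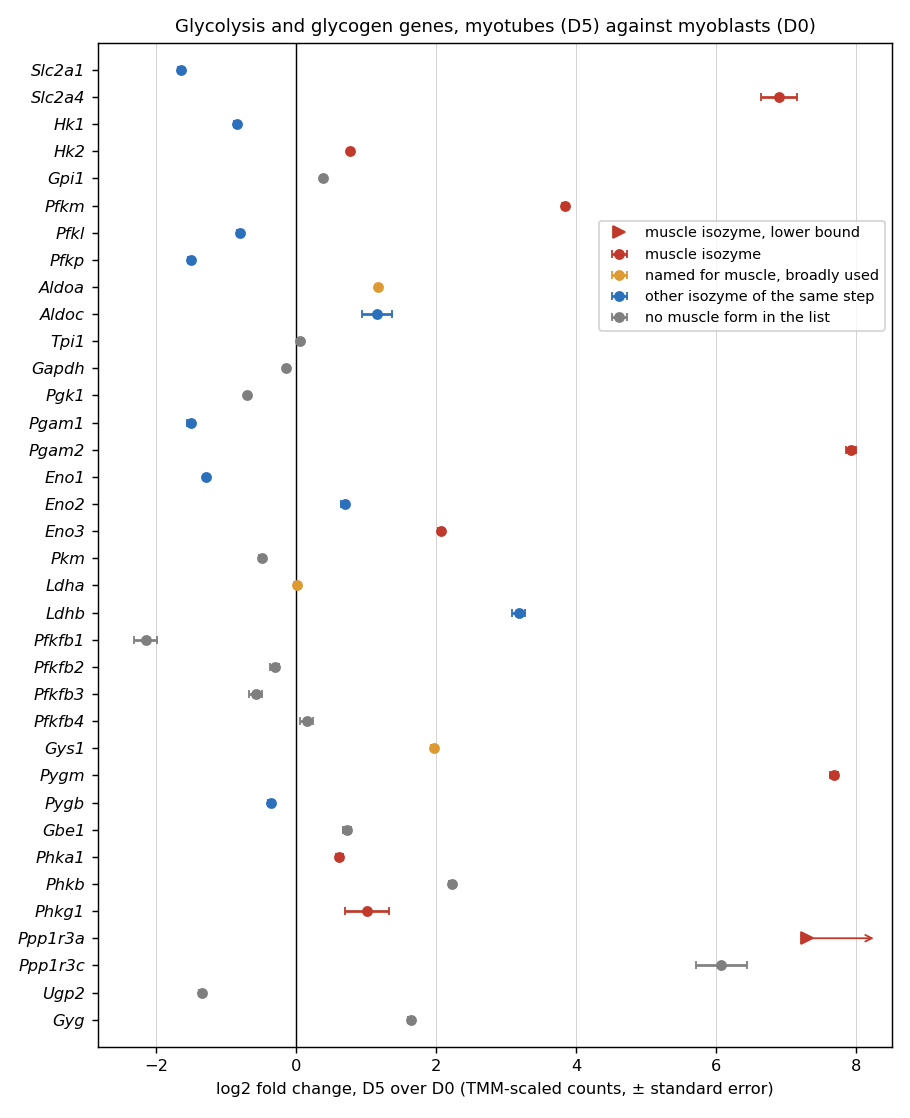
Log2 fold change of D5 over D0 for the 36 tested genes, in the order of the pathway, from edgeR's fit on 3 D0 and 3 D5 libraries. Points are fitted values with their standard errors, colours mark the class, and Ppp1r3a, with 0 counts at D0, is drawn at its lower bound with an arrow. Red points lie to the right of 0 in every row, and blue points lie to the left of 0 except for Aldoc, Eno2 and Ldhb.

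The sequences before the start sites are shown for 5 of the genes, namely the pair at 1 step whose changes lay furthest apart and 3 further muscle isozymes, so that the motifs known from muscle promoters can be read in them. Myogenic factors such as MyoD and myogenin bind E-boxes (CANNTG), with CAGCTG a form they are known to prefer. For MEF2 factors the pattern searched was CTA and TAG with any 4 bases between them, called the MEF2 pattern below. Other forms of the MEF2 site were not searched, so a window without this pattern may still hold such a site. TEAD factors bind CATTCC. Each line gives the 250 bases upstream of a RefSeq start site on GRCm38.p6, on the strand of the gene, with matches to these motifs on either strand in capitals. Pgam2 and Pgam1 are the muscle and ubiquitous forms of 1 enzyme, and Eno3, Pygm and Ppp1r3a are muscle isozymes at other steps.
Pgam2 (chr11:5803797-5804046, minus strand): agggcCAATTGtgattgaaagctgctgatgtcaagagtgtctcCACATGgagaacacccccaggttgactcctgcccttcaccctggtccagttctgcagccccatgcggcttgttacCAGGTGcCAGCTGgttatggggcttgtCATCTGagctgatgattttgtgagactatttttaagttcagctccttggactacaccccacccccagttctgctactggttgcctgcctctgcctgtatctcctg
Pgam1 (chr19:41911621-41911870, plus strand): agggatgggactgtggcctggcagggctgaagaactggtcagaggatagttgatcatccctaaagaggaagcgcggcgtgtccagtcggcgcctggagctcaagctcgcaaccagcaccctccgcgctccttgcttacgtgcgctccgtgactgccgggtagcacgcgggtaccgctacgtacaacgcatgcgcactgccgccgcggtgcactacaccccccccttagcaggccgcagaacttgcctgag
Eno3 (chr11:70656926-70657175, plus strand): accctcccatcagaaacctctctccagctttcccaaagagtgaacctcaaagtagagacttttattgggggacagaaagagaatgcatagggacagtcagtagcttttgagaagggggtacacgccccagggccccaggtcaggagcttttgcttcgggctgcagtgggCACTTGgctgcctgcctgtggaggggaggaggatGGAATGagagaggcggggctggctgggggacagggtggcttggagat
Pygm (chr19:6384158-6384407, plus strand): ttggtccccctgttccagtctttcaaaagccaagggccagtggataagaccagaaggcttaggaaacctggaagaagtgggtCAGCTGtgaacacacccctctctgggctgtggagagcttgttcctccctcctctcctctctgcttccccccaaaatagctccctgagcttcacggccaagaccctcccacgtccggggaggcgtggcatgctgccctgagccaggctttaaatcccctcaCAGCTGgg
Ppp1r3a (chr6:14755275-14755524, minus strand): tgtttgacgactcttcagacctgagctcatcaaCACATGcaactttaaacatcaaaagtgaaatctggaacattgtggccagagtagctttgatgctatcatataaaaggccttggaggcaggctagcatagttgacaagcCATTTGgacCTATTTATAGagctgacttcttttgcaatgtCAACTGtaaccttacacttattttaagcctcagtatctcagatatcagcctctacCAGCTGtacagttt

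The window of Pgam2 held 5 E-boxes, 1 of them CAGCTG, and the window of Pgam1 held none. Pygm had CAGCTG at 2 places, from -168 to -163 and from -8 to -3 counted from the RefSeq start site. GENCODE starts this gene at 6384399, inside the window, so the second CAGCTG lies within the GENCODE transcript. Ppp1r3a had 4 E-boxes, 1 of them CAGCTG, and a match to the MEF2 pattern from -100 to -91. Eno3 had 1 E-box and 1 CATTCC, read on the other strand. For Pgam2, Pgam1 and Eno3 the GENCODE start lies downstream of the window, at 5803733, 41911923 and 70657202. Bases shortly after their RefSeq starts were not found in their GENCODE transcripts. Windows were found for 37 of the 39 genes, with none for Slc2a3 and Slc2a4. The first listed start site was taken where a gene had several.

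Across the classes, CAGCTG occurred in 5 of 9 muscle isozyme windows (Fbp2, Pgam2, Phka1, Ppp1r3a and Pygm), in 0 of 11 ubiquitous ones and in 12.8% of the 27025 windows in the table. The looser CANNTG, of which CAGCTG is a part, occurred in 8 of 9 muscle, 4 of 11 ubiquitous and 66.0% of all windows. The MEF2 pattern occurred in 2 of 9 muscle windows, in 1 of 11 ubiquitous ones, that of Ldhb, and in 3.23% of all. CATTCC occurred in 1 of 9, 2 of 11 and 12.6%. ACGTG, the core that hypoxia-inducible factors and several other factors bind, occurred in 4 of 9, 4 of 11 and 16.6%. A match is a run of letters and not a measured binding site, and the windows hold no distant enhancers.

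Of the 3 glucose transporter genes in the set, GLUT1 (Slc2a1), the basal transporter of dividing cells, had the most RNA in both states. Slc2a6, outside the set and described further below, was not ranked with them. It stood at 0.623 ± 0.0803 CPM at D0 and 105 ± 4.33 at D5 (SD, n = 3 per group). Slc2a1 stood at 212, 210 and 203 CPM at D0 and at 69.6, 62.6 and 66.8 at D5. The groups did not overlap, and the level at D5 was 31.8% of that at D0 (log2 fold change -1.65 ± 0.04 SE, edgeR adjusted p = 1.9e-26). GLUT4, which insulin and contraction bring to the surface of muscle fibres, had 0, 4 and 3 counts at D0 and 193, 187 and 172 at D5. In CPM that was 0, 0.0951 and 0.0744 against 7.68, 7.58 and 6.91, with a log2 fold change of 6.89 ± 0.26 (edgeR adjusted p = 7e-21). The fold is against a level near 0, and per length Slc2a4 reached 6.60 TPM in myotubes against 58.8 for Slc2a1. Slc2a3, the transporter of neurons and placenta, had 0, 0 and 2 counts at D0 and 6, 5 and 3 at D5, too few for the test.

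Hexokinase traps glucose in the cell as glucose 6-phosphate, and the 2 forms in the set crossed. The muscle form Hk2 stood at 134, 134 and 126 CPM at D0 and at 218, 224 and 232 at D5. Hk1 stood at 270, 269 and 267 CPM at D0 and at 147, 144 and 155 at D5. Neither gene overlapped between groups. Hk2 rose by 0.77 ± 0.04 (log2, SE) and Hk1 fell by 0.85 on the same scale, both changes of under 2-fold (edgeR adjusted p = 9.9e-19 and 2.9e-20). Per length, Hk1 was the more abundant at D0, with 109 ± 1.18 TPM against 76.2 ± 2.2, and Hk2 was at D5, with 117 ± 2.75 against 54.1 ± 2.32 (SD, n = 3 per group).

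RNA of phosphofructokinase, the step at which the cell commits glucose to breakdown, changed from a mixture of subunits to mostly the muscle one. Pfkm stood at 40.5, 40.7 and 40.3 CPM at D0 and at 572, 593 and 564 at D5, which was 14.2-fold higher (log2 fold change 3.83 ± 0.04, edgeR adjusted p = 3.4e-36). The spread within each group was small beside that gap. The liver-type subunit Pfkl went from 121 ± 5.75 to 69.3 ± 1.45 CPM and the platelet-type Pfkp from 243 ± 5.11 to 85.3 ± 1.16 (SD, n = 3 per group). Both were called lower, and on the log2 scale Pfkl fell by 0.80 and Pfkp fell by 1.51.

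The PFKFB enzymes make and remove fructose 2,6-bisphosphate, the strongest activator of phosphofructokinase, and none of the 4 genes rose. Pfkfb1 stood at 3.95, 4.90 and 4.89 CPM at D0 and at 0.955, 0.973 and 1.16 at D5. Its level in myotubes was 22.5% of that in myoblasts (log2 fold change -2.15 ± 0.17, edgeR adjusted p = 6.9e-13). Pfkfb2 was at 80.8% and Pfkfb3, the form linked to proliferating cells, at 66.8% of the D0 level, and both were called lower. Pfkfb4 was at 6.34 ± 0.102 CPM at D0 and 7.04 ± 0.716 at D5, and its groups overlapped (edgeR adjusted p = 0.14). Fbp2, which runs the reverse of the phosphofructokinase step in muscle, had 0 counts in all D0 libraries and 2, 3 and 1 at D5, both at or under the limit of 3 counts taken as detection here.

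In the middle of glycolysis, outside the phosphofructokinases, no gene from glucose phosphate isomerase to phosphoglycerate kinase changed by more than 2.24-fold. Gpi1 rose from 257 ± 7.0 to 336 ± 11.9 CPM, a direction that turned with ERCC scaling. Aldoa, which cleaves fructose 1,6-bisphosphate, stood at 910, 908 and 872 CPM at D0 and at 2021, 2053 and 1962 at D5. It was 2.24-fold higher (log2 fold change 1.17 ± 0.03, edgeR adjusted p = 4.8e-24) and had the highest TPM of the set in myotubes, 2146 ± 62.8. The brain form Aldoc also rose, by 1.15 on the log2 scale, but per length it reached only 1.61 TPM in myotubes.

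Tpi1, which interconverts the 2 triose phosphates, stood at 497, 515 and 473 CPM at D0 and at 519, 537 and 492 at D5. Its groups overlapped and it was not called (edgeR adjusted p = 0.12). Gapdh, often taken as a constant reference gene, stood at 1569, 1554 and 1485 CPM at D0 and at 1364, 1442 and 1367 at D5. Its groups did not overlap and it was called lower, at 90.6% of the D0 level (log2 fold change -0.14 ± 0.03, edgeR adjusted p = 0.00033). With ERCC scaling its log2 fold change was -0.69 ± 0.51, with no call (edgeR adjusted p = 0.30). Pgk1, which makes the first ATP of the chain, was at 61.5% of its D0 level (log2 fold change -0.70 ± 0.03).

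Phosphoglycerate mutase showed the widest gap between isozymes. The muscle form Pgam2 had 24, 25 and 30 counts at D0 and 3848, 4107 and 4066 at D5. In CPM that was 0.640, 0.594 and 0.744 against 153, 167 and 163, a 244-fold difference (log2 fold change 7.92 ± 0.07, edgeR adjusted p = 1.6e-36). Pgam1 went the other way, from 130, 129 and 123 CPM at D0 to 47.4, 39.7 and 47.0 at D5. All D5 libraries lay below all D0 libraries, and the level was 35.2% of that at D0 (log2 fold change -1.51 ± 0.05, edgeR adjusted p = 4.7e-23).

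Enolase, the next enzyme, showed the same crossing from a higher start. Eno3, the muscle form, stood at 249, 264 and 243 CPM at D0 and at 1034, 1106 and 1022 at D5, 4.18-fold higher (log2 fold change 2.06 ± 0.04, edgeR adjusted p = 3.1e-29). Myoblasts had more Eno3 than Pgam2 or Pygm, with 502 TPM against 2.72 and 1.41. Eno1, the form of most cells, stood at 1265, 1266 and 1216 CPM at D0 and at 522, 525 and 494 at D5 (log2 fold change -1.28 ± 0.03, edgeR adjusted p = 6.6e-25). The neuronal Eno2 was called higher, from 25.7 ± 1.03 to 41.6 ± 1.04 CPM (SD, n = 3 per group).

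Pyruvate kinase RNA in these cells came from Pkm, with the other gene, Pklr, at 0 counts in every library. The splice forms of Pkm cannot be told apart in counts per gene. Pkm stood at 2342, 2365 and 2251 CPM at D0 and at 1629, 1644 and 1661 at D5, and it was called lower (log2 fold change -0.50 ± 0.03, edgeR adjusted p = 1.1e-14). It had the highest TPM of the set in myoblasts, 1605 ± 32.5. RNA of lactate dehydrogenase, which turns pyruvate into lactate, did not shift toward the subunit named for muscle. Ldha, the M subunit, stood at 515, 517 and 494 CPM at D0 and at 514, 514 and 504 at D5, and its groups overlapped (log2 fold change 0.0060 ± 0.03, edgeR adjusted p = 0.87). With total-count scaling it was called lower, at -0.079 ± 0.03 (edgeR adjusted p = 0.023). Ldhb, the H subunit of heart and oxidative tissue, rose from 2.32, 3.30 and 2.48 CPM to 24.1, 26.0 and 23.7, 9.10-fold higher (log2 fold change 3.18 ± 0.09, edgeR adjusted p = 5.4e-24).

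**Figure D2:**
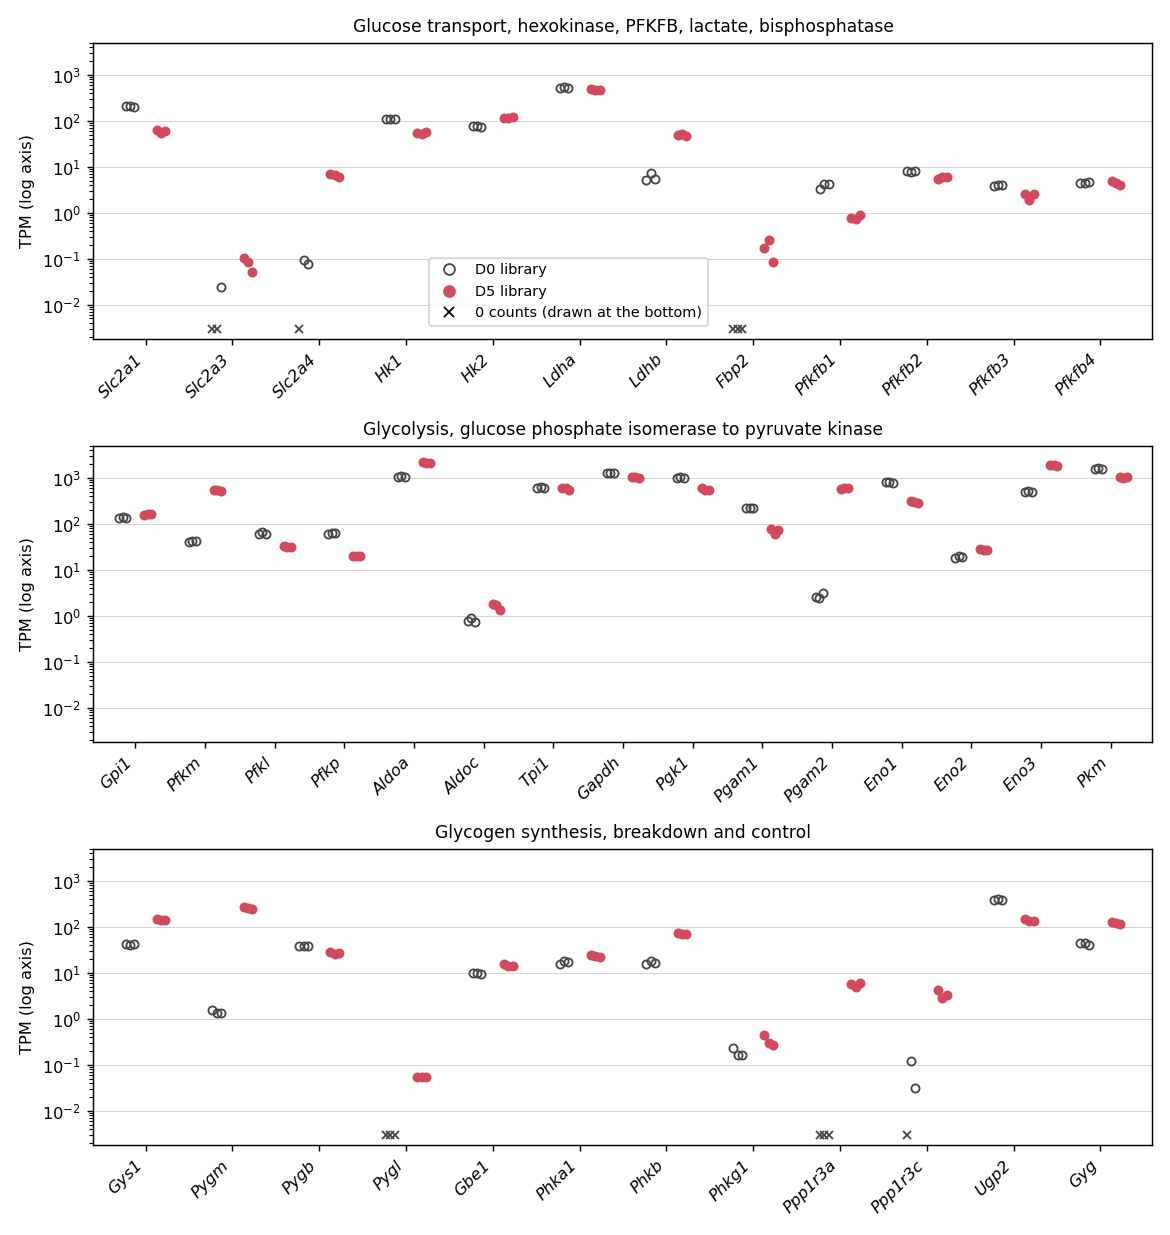
TPM of all 39 genes in each of the 6 libraries, on a log axis, with 3 D0 libraries as open circles and 3 D5 libraries as filled circles. A cross at the bottom marks a library with 0 counts. Replicates lie close together except for genes with few counts, and the widest gaps are those of Pgam2, Pygm, Slc2a4 and Ppp1r3a.

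Of the 4 genes of glycogen synthesis in the set, 3 were called higher and 1 was called lower, against 42.2% and 40.8% of all genes tested. Gys1, muscle glycogen synthase, stood at 58.8, 56.4 and 57.9 CPM at D0 and at 226, 226 and 222 at D5 (log2 fold change 1.96 ± 0.03, edgeR adjusted p = 1.4e-29). Gyg, glycogenin, which primes each particle, rose from 29.9 ± 1.90 to 92.9 ± 3.80 CPM, and the branching enzyme Gbe1 from 15.2 ± 0.489 to 25.1 ± 1.29 (SD, n = 3 per group). Ugp2, which makes the UDP-glucose that glycogenin and the synthase consume, fell instead. It stood at 355, 358 and 335 CPM at D0 and at 142, 136 and 133 at D5, 39.2% of the D0 level (log2 fold change -1.35 ± 0.04, edgeR adjusted p = 5.5e-25).

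RNA of phosphorylase, which frees glucose units from glycogen, was mostly that of the muscle form in myotubes. Pygm, the enzyme missing in McArdle disease, had 54, 53 and 50 counts at D0 and 6801, 6702 and 6550 at D5. In CPM it was 1.31 ± 0.110 against 268 ± 4.70 (SD, n = 3 per group), a 204-fold difference (log2 fold change 7.67 ± 0.06, edgeR adjusted p = 1.3e-38). The brain form Pygb was called lower, from 53.8 ± 1.08 to 42.0 ± 0.946 CPM, a smaller change than that of the other ubiquitous genes that fell. The liver form Pygl had 0 counts in every D0 library and 3 in every D5 library, which is at the limit.

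Phosphorylase kinase, which switches phosphorylase on, has catalytic, regulatory and calcium-sensing subunits. The 3 subunit genes in the set were all called higher, against 42.2% of all genes tested. The regulatory Phkb, shared by all tissues, stood at 34.8, 39.1 and 35.6 CPM at D0 and at 169, 174 and 167 at D5 (log2 fold change 2.22 ± 0.04, edgeR adjusted p = 4.6e-29). The muscle-type regulatory Phka1 rose less, from 30.9 ± 1.60 to 47.4 ± 1.98 CPM. Phkg1, the muscle catalytic subunit, was barely detected, with 17, 13 and 12 counts at D0 and 23, 16 and 14 at D5. Its log2 fold change of 1.01 ± 0.31 passed the threshold (edgeR adjusted p = 0.0042), but without D5 replicate 1 it was 0.78 and no longer called.

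The targeting subunits hold protein phosphatase 1 on the glycogen particle, where it activates the synthase. Ppp1r3a, the striated muscle subunit, had 0 counts in every D0 library and 320, 285 and 336 at D5. Against a floor of 3 counts per library it was at least 157-fold higher in myotubes (edgeR adjusted p = 1.6e-23). Ppp1r3c, a subunit of wider use, had 0, 4 and 1 counts at D0 and 92, 64 and 72 at D5. Its log2 fold change was 6.07 ± 0.37 (edgeR adjusted p = 1.3e-15), and it rests on the few D0 counts: without D0 replicate 2 it was 7.49, and it was called in both cases. Ppp1r3c, like Ppp1r3a, passed the filter on low counts only through its D5 counts, so its call is no separate support.

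The share of each isozyme in the summed TPM of its family puts these changes on 1 scale. The level of a share depends on the length used, and exonic length exceeds the longest transcript by unlike amounts. For Hk1 the 2 lengths were 8532 and 4278 bases, for Hk2 5969 and 5513, for Eno1 5379 and 2027, and for Eno3 1739 and 1564. Pgam2 held 1.15, 1.08 and 1.41% of phosphoglycerate mutase transcripts at D0 and 88.4, 90.8 and 89.1% at D5. Pygm held 3.77, 3.40 and 3.39% of phosphorylase at D0 and 90.5, 90.8 and 90.2% at D5. Pfkm held 25.2, 24.5 and 25.5% of phosphofructokinase at D0 and 91.0, 91.4 and 91.0% at D5. In all 3 families the muscle form was the minor one in every myoblast library and held most of the family in every myotube library.

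Eno3 and Hk2 started higher. Eno3 held 37.4, 38.6 and 37.6% of enolase at D0 and 84.8, 85.7 and 85.4% at D5, and Hk2 held 41.5, 41.6 and 40.2% of hexokinase at D0 and 68.0, 68.9 and 68.1% at D5. Slc2a4 held 0, 0.0455 and 0.0369% of the 3 transporters in the set at D0 and reached 9.99, 10.9 and 9.43% at D5. All 6 of these shares had no overlap between groups, and the exact two-sided permutation test gave p = 0.1 for each, the smallest that 3 libraries against 3 allow.

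The families whose muscle-named gene is used widely did not follow. Aldoa held 99.9% of aldolase in both groups, with overlapping libraries (exact permutation p = 1). Ldha held 98.9 ± 0.201% of lactate dehydrogenase at D0 and 90.8 ± 0.351% at D5 (SD, n = 3 per group), a fall with no overlap and again the smallest p possible, 0.1 in the exact permutation test. Over all 8 families tested in this way, 7 had an exact permutation p of 0.1, and none could reach 0.05 even before adjustment. In the PFKFB family Pfkfb1 went from 19.5 to 5.98% and Pfkfb4 from 22.3 to 33.6%, while Pfkfb2 and Pfkfb3 overlapped between groups.

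**Figure D3:**
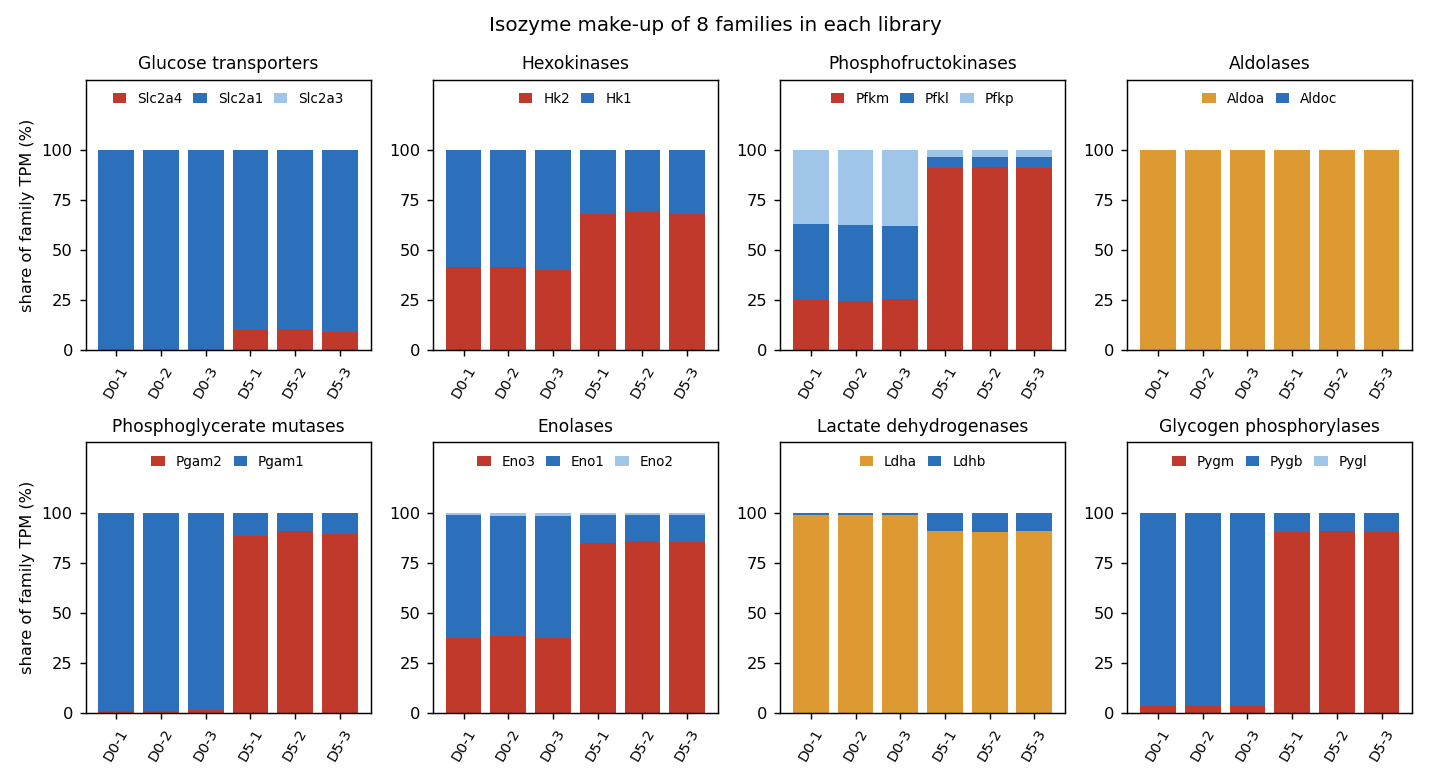
Share of each gene in the summed TPM of its family, in percent, for 8 families and 6 libraries (3 D0, 3 D5). Red is the muscle isozyme, orange a gene named for muscle but widely used, and blue shades the other forms. Red fills most of the D5 bars for phosphofructokinase, phosphoglycerate mutase, enolase and phosphorylase. It fills about 10.1% for the 3 transporters in the set, and orange fills nearly all of the aldolase bars in both groups.

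The summed level of the set differed less between the states than its make-up. All 39 genes summed to 0.896 ± 0.0186% of TPM at D0 and 1.06 ± 0.0232% at D5 (SD, n = 3 per group), with no overlap (exact permutation p = 0.1, the smallest possible). Within that sum the muscle isozymes went from 0.0641 ± 0.0025 to 0.342 ± 0.0078% and the ubiquitous ones from 0.153 ± 0.0024 to 0.0637 ± 0.0023%. The 12 glycogen genes went from 0.0564 ± 0.0013 to 0.0812 ± 0.0029%. The ranking changed with them. The 5 most abundant genes by exonic length were Pkm, Gapdh, Aldoa, Pgk1 and Eno1 in myoblasts and Aldoa, Eno3, Gapdh, Pkm and Pgam2 in myotubes. This order depends on the length used, since exonic length counts all annotated exons of a gene. It was 5379 bases for Eno1, whose longest transcript has 2027, and 5001 for Pkm, whose longest has 2432. For Pgam2 both lengths were 840. Gapdh and Pkm, with 1045 and 1021 TPM at D5, differed by about the spread between libraries, and so did Pgk1 and Tpi1 there, with 557 ± 31.1 and 582 ± 26.7. Pgam2, with 595 ± 14.2, did not stand apart from Tpi1 either, so the fifth place is not settled.

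Some of these genes have near-identical copies elsewhere, and how the counting treated reads with several matches is not stated in the sources used here. Of the 50-base windows of each gene's transcripts, the share also found in transcripts of other genes (GENCODE annotation of GRCm38) was 53.9% for Pgk1, 36.2% for Pgam1, 26.0% for Eno1, 25.8% for Pkm, 25.1% for Gapdh and 21.0% for Ldhb. It was 0 for Pgam2, Eno3, Hk2, Slc2a4 and Ppp1r3a, and 0.405% for Pygm. In the mutase and enolase families the ubiquitous form shared sequence and the muscle form did not, and values of the genes with copies are uncertain to that extent. Pfkm shared 8.83%, with Gm26513, which held at most 25 counts in any library.

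Eno1 was the clearest case. Its near copies Eno1b and Gm4735 held 6598, 8418 and 7052 and 5593, 5531 and 5552 counts at D0, and at D5 they stood at 41.8% and 35.1% of their D0 CPM, close to the 41.1% of Eno1. With both added to the enolase family, a choice made after seeing the data, Eno3 held 24.7 ± 0.547% at D0 and 76.8 ± 0.836% at D5 (SD, n = 3 per group). The copies of Pgk1 and Pgam1 with most shared sequence, Pgk1-rs7 and Pgam1-ps2, held at most 30 counts in any library. Of the copies of Gapdh, Gm13394 held 7081, 7326 and 7302 counts at D0 and 4435, 4364 and 4372 at D5. Phkg1 overlapped Sumf2 on the other strand over 9.68% of its exonic length, and without a stated strand setting reads of such pairs cannot be told apart.

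Other genes of the same pathways, from lists written with earlier results of these data known, were called at shares to be read against the 42.2% higher and 40.8% lower over all genes. Of 24 further glycolysis and transport genes 12 could be tested, 5 were called higher and 5 lower, and the median log2 fold change was 0.02. The largest rise was that of Slc2a6 (GLUT6), a transporter kept inside the cell, which had 20, 29 and 26 counts at D0 and 2624, 2696 and 2507 at D5 (log2 fold change 7.38 ± 0.08, edgeR adjusted p = 5.1e-35). Slc2a10 and Bpgm, which makes 2,3-bisphosphoglycerate, rose by 1.28 and 1.22 on the log2 scale. Eno4, Adpgk and Tigar fell by 3.44, 1.12 and 1.05.

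Of 21 further glycogen genes 17 could be tested, 6 were called higher and 9 lower (42.2% and 40.8% over all genes), with a median of -0.17. Among those that rose were Epm2a (laforin, a glycogen phosphatase), from 2.85 to 16.2 CPM, and Pgm2, a phosphoglucomutase, from 62.0 to 189. Those that fell most were Pgm1, another phosphoglucomutase, from 42.6 to 13.2 CPM, Ppp1r3b, the liver targeting subunit, from 5.33 to 1.67, and Stbd1, a glycogen-binding protein, from 155 to 50.5. The symbols of the mouse phosphoglucomutases are given as in the count tables. Whether they match the human genes of the same number was not checked, so neither should be read as its human namesake. Of the 8 genes of the pentose phosphate branch, which draws glucose 6-phosphate off for NADPH and ribose, all could be tested, 3 were called higher and 4 lower (42.2% and 40.8% over all genes). G6pdx, its entry enzyme, fell to 30.2% of its D0 level (log2 fold change -1.73 ± 0.05, edgeR adjusted p = 1.6e-23), and Tkt and Rpe fell by 0.81 and 0.47. Rpia, H6pd and Pgd rose by 0.99, 0.25 and 0.19.

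Scaling changed many of the calls. The libraries also hold ERCC spike-ins, synthetic RNAs added to each sample, at 0.720 to 2.09% of all counts. This range lay within D5, with 1.2, 0.720 and 2.09% in replicates 1, 2 and 3, against 0.859, 0.828 and 0.726% at D0. D5 replicate 2 was below every D0 library, so the shift described next rests on D5 replicates 1 and 3. Why the D5 replicates differed was not tested. With the libraries scaled to the spike-ins, the median over all 16290 genes was -0.58. Of these genes 11.1% were called higher and 23.0% lower. Falls then made up 67.4% of all calls, against 49.2% with TMM. Of the 36 tested genes 10 were called higher and 9 lower under that scaling. The muscle isozymes called higher were 6 of 9, all but Hk2, Phka1 and Phkg1, and the ubiquitous ones called lower were 6 of 10. Gpi1, Tpi1, Ldha and Pfkfb4 changed sign with it. The calls of Hk2, Aldoa, Aldoc, Gapdh, Eno2, Pkm, Pfkfb2, Pfkfb3, Pygb, Gbe1, Phka1, Phkg1 and Gyg were lost without a change of sign. A lost call was not always a smaller change, since the standard errors rose: Pkm stood at -1.06 ± 0.51 (log2, SE) with ERCC scaling against -0.50 ± 0.03 with TMM, and Pfkfb3 at -1.23 ± 0.53 against -0.58 ± 0.10. Among the rises, Gyg stood at 1.09 ± 0.52 against 1.63 ± 0.05 and Aldoa at 0.61 ± 0.51 against 1.17 ± 0.03. Relative to the shifted median, the median log2 fold change of the set, -0.06, was still the higher one. Shares within a family do not depend on the scaling.

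**Figure D4:**
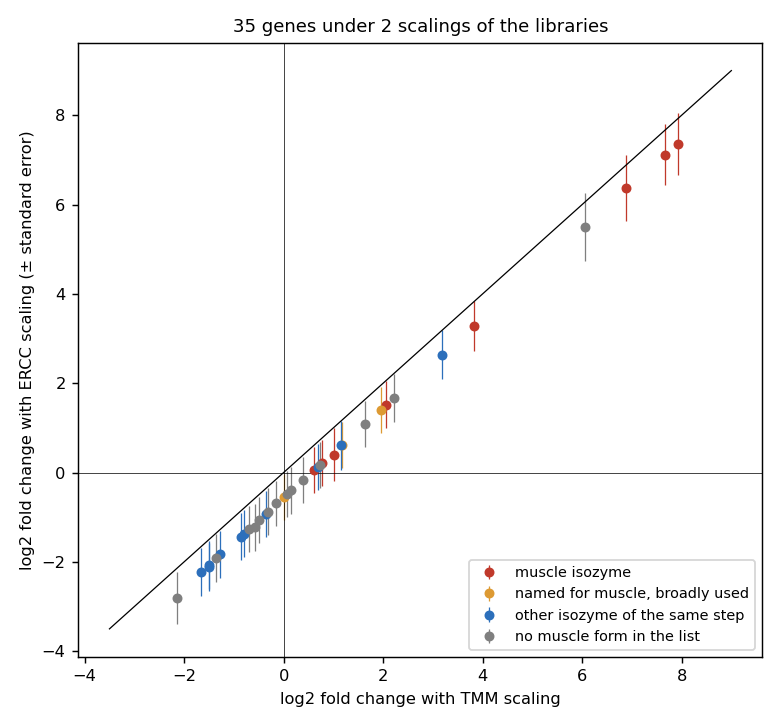
Log2 fold change of D5 over D0 with ERCC scaling against that with TMM scaling for 35 genes, with the line of equality. Vertical bars are the standard errors of edgeR's fit under ERCC scaling on 3 D0 and 3 D5 libraries, and Ppp1r3a is not drawn since it had 0 counts at D0. All points lie below the line by a like amount, 4 genes near 0 change sign, and the muscle isozymes stay above 0.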

How the data were processed

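RNA was sequenced from 3 D0 and 3 D5 cultures of C2C12. The authors deposited raw counts per gene, made with featureCounts on GRCm38 (mm10) and not normalized. The labels name Tophat2 and the study's methods name HISAT2 as aligner, and the annotation release and strand setting are not given in the sources used here. In each table, 92 ERCC rows (0.720 to 2.09% of counts) and 1 row without a gene name, which held the column total, were left out. Counts were analysed with edgeR 4.0.16 in R 4.3.3 (TMM, filterByExpr, quasi-likelihood test, Benjamini-Hochberg adjustment over 16290 genes, threshold 0.05). The SE of a log2 fold change is its size over the square root of F. TPM used exonic lengths from GENCODE M21, found for 99.8% of gene rows. The design had planned a search of the genome for shared sequence, and transcripts of other genes were searched instead. Scripts were tested on simulated data with known changes. Groups follow the sample titles, p-values measure the spread between these cultures, and the floor of 3 counts covers counting error only.

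All 39 genes are named, and of each of the 3 further lists the 3 highest and 3 lowest log2 fold changes among called genes, with markers where needed. Of these, 1 gene is not reported here. The members and lists were chosen with earlier results of these data known. Alternatives were DESeq2 1.42.0, upper-quartile, total-count and ERCC scaling, no filter, at least 10 counts in every library, a replicate block, each library left out, and for shares summed counts, longest transcripts and added enolase copies. Replicates of a group differed by more than sampling noise (chi-square of 2.28 to 3.71 per degree of freedom).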

Additional observations from a re-analysis of the deposited data

How the results depend on the processing

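DESeq2 gave all 36 tested genes the same direction and call as edgeR. ERCC scaling moved counts the most. It left 10 genes called higher and 9 lower, 1 ubiquitous isozyme called higher (1 by at least 2-fold), 1 further glycolysis gene higher, 1 further glycogen gene higher and 4 lower, 0 pentose phosphate genes higher and 2 lower, and 5560 of all genes called. It turned Gpi1 to -0.17, Tpi1 to -0.48, Ldha to -0.55 and Pfkfb4 to -0.40 on the log2 scale, and 13 further called genes lost their call. Without the filter on low counts 5 ubiquitous isozymes were called higher, 4 of them by at least 2-fold, since more low genes were tested. The sign of Ldha also turned with upper-quartile scaling (-0.0099), total counts (-0.079, there called lower with an edgeR adjusted p of 0.023, which makes 15 genes lower) and no filter (-0.047), and that of Tpi1 with total counts (-0.025). With at least 10 counts in every library, 33 of the genes were tested and none of these changed direction or call. Slc2a4, Ppp1r3a and Ppp1r3c dropped out, which left 16 called higher, against 5742 of all 13713 genes tested there. By at least 2-fold 11 were higher, and the share over all genes was not taken for that count. With 1 library left out, 18 to 21 genes were called higher and 14 lower, Ldha ranged from -0.027 to 0.018, and Aldoa's share changed by -0.0047 to 0.0040 percentage points. Phkg1 lost its call without D5 replicate 1, and Tpi1 and Pfkfb4 gained one without D5 replicate 3.

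The gain in the muscle share moved with the length used. With summed counts in place of TPM it was 68.8 percentage points for Pfkm, 77.7 for Pgam2, 49.0 for Eno3 and 84.1 for Pygm, and the change for Ldha was -4.07. With the longest transcript it was 68.7 for Pfkm, 51.0 for Eno3, 86.4 for Pygm and -5.55 for Ldha. With Eno1b and Gm4735 added it was 52.2 for Eno3. No share changed direction under these. The titles do not say whether the same replicate numbers pair the libraries. Correlations of deviations were 0.0223, 0.123 and 0.0570 for numbers 1, 2 and 3. For unlike numbers they ran from -0.0803 to 0.0231, the latter for D5 replicate 1 with D0 replicate 3. Pairing was therefore not settled, and the main test treats the libraries as unpaired. With the replicate number as a block, 19 genes were called higher and 14 lower, as without it. Depth limits Slc2a3, Fbp2 and Pygl, which had at most 6 counts in any library.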
